A study of Homo sapiens with 8 samples.

Results

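Olfactory receptor genes encode the odorant-sensing receptors of the nose, and human chromosome 11 is known for carrying many of them. The group described was every protein-coding gene placed on chromosome 11 (GRCh38) whose symbol is OR followed by digits, letters and digits, such as OR5A1. It held 168 genes of the 387 such receptor genes on chromosomes 1 to 22 and X, or 43.4%. Of 171 matching symbols listed under chromosome 11, 3 (OR8U8, OR8U9 and OR9G9) lay on alternate sequences and were left out. Members were chosen by name and position and by no measured value. The group itself was singled out with earlier results of these data known, so its values are given as a description.

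The libraries came from neural progenitor cells induced from the human embryonic stem cell line H9. Cells named sh1 and sh4 carried lentiviral short hairpins against KDM2A, the 2 that worked best of those tried, and NC cells carried the control lentivirus. All 3 kinds of cells were infected at a multiplicity of 20, and puromycin at 1 ug/ml was applied for 48 hours and then continued. Chromatin immunoprecipitation with sequencing measured H3K36me2, dimethylation of lysine 36 on histone H3, in sh1, sh4 and NC cells, and the KDM2A protein in NC cells. Each was 1 library, so no comparison had a replicate and no test between conditions was possible. The intervals below are exact 95% intervals that cover counting error only. The lists hold no RNA and no KDM2A measurement after knockdown, so neither the knockdown nor the label of neural progenitor could be checked from expression. Of 7 neural progenitor genes (PAX6, SOX1, SOX2, NES, FABP7, HES5 and OTX2), 5 had a KDM2A peak at an end in NC cells, and H3K36me2 lay over 0 in sh1 and sh4 and 1 in NC. Over all protein-coding genes the shares were 84.0% for KDM2A and 16.2% in sh1, 15.4% in sh4 and 20.0% in NC for H3K36me2, so these 7 genes do not stand above the background.

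Each olfactory neuron expresses a single receptor gene from this large family, and receptor genes are mostly silent in other cell types. Class I receptors, families 51 to 56, are the older, fish-like group and sit in 1 cluster on human chromosome 11. Class II receptors form the other families. KDM2A removes methyl groups from H3K36me2 and carries a CXXC zinc finger that binds unmethylated CpG, the dinucleotide that is dense in CpG islands. H3K36me2 itself is a mark of intergenic sequence and gene bodies.

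Chromosome 11 receptors fell into 7 clusters, split wherever neighbouring members lay more than 1 Mb apart. The first ran from OR52B4 to OR10A3 (chr11:4367263-7941708) and held 67 genes, 55 of class I and 12 of class II. The next ones ran from OR4B1 to OR4A47 (chr11:48216810-48489722, 7 genes) and from OR4C13 to OR4C12 (chr11:49952391-49982535, 2 genes). Beyond the centromere lay OR4C46 to OR5AK2 (chr11:54603069-56989843, 48 genes) and OR9Q1 to OR10V1 (chr11:58023881-59713845, 21 genes). OR2AT4, known as a receptor for synthetic sandalwood odorant in skin cells, stood alone (chr11:75081753-75096890). The last cluster ran from OR6X1 to OR8A1 (chr11:123753580-124571374, 22 genes). The smallest gap that split clusters was 1.03 Mb, between OR5AK2 and OR9Q1, and the widest that did not was 0.874 Mb, between OR2D3 and OR5P2. The clusters together spanned 8.79 Mb, or 6.51% of chromosome 11, and held 61 other protein-coding genes. Members were short, with a median annotated length of 1103 bp and 92 of 168 at 2000 bp or less, since the receptor is encoded by a single coding exon. The longest, OR51B5, was annotated over 165335 bp. In chromosome order, 15 members began inside the annotated span of an earlier member, not always the direct neighbour, so these members shared sequence.

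Annotated promoter windows of receptors held few CpG, the dinucleotide that the zinc finger of KDM2A binds. RefSeq promoter sequence on GRCh38.p14, from 250 bases before to 50 after the annotated start, was matched by symbol and gene identifier for 135 of the 168 members. Sequences are written from the 5′ end along the strand of the gene, in lower case with every CG in capitals. The first 3 had the highest KDM2A fold of peaks that overlapped a member's promoter window, each in part only. They are OR51V1 (chr11:5200633-5200932, minus strand), OR2AG1 (chr11:6782770-6783069, plus strand) and OR9G1 (chr11:56698845-56699144, plus strand). The OR51V1 peak (chr11:5200249-5200641) reached only the edge of its window that lies inside the gene. The OR9G1 peak (chr11:56699087-56699278) reached only the last part of its window, at the start, and ran on into the gene. The OR2AG1 window lay inside an H3K36me2 region in sh1 and that of OR9G1 inside one in sh4. Shown after them are OR5M9 (chr11:56463352-56463651, minus strand) and OR5P2 (chr11:7796893-7797192, minus strand), which overlapped H3K36me2 regions, OR5M9 in sh4 over its whole window and OR5P2 in sh1 over the part nearest the gene. Among all members, 3 windows overlapped a region in sh1, 3 in sh4 and 0 in NC. Those of OR8D2 (sh1, 0 CG) and OR4D9 (sh4, 1 CG) are not shown. OR52N2 (chr11:5808674-5808973, plus strand) is shown as the member with most CG. It had neither a KDM2A peak nor an H3K36me2 region over this window, but a KDM2A peak lay just past the window, inside the gene (chr11:5809075-5809365, fold 2.58, FDR 0.297).
OR51V1: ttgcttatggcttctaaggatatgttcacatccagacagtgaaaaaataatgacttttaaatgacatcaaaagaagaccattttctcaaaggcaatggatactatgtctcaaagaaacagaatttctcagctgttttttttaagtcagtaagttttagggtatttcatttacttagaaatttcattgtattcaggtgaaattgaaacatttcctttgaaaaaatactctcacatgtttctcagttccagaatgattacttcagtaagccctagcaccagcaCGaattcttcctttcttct
OR2AG1: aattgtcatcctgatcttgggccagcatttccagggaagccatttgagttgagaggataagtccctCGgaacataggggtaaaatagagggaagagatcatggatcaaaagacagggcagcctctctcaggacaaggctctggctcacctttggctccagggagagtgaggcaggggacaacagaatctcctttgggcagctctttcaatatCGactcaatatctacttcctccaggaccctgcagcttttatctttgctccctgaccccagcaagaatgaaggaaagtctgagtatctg
OR9G1: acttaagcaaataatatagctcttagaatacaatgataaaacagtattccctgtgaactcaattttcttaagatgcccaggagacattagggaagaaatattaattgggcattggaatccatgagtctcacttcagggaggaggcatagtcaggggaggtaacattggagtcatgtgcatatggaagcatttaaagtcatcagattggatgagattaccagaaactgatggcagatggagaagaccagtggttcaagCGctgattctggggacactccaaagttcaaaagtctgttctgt
OR5M9: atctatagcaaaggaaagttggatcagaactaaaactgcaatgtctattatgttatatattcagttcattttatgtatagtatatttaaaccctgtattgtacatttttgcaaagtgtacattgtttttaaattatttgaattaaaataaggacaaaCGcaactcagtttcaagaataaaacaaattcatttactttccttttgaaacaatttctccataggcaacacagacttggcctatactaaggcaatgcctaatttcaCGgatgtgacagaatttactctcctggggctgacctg
OR5P2: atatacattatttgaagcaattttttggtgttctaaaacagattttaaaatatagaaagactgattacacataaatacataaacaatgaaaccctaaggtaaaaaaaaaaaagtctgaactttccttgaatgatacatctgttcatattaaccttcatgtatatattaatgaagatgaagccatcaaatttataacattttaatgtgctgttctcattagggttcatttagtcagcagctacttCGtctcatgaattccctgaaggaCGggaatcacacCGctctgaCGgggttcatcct
OR52N2: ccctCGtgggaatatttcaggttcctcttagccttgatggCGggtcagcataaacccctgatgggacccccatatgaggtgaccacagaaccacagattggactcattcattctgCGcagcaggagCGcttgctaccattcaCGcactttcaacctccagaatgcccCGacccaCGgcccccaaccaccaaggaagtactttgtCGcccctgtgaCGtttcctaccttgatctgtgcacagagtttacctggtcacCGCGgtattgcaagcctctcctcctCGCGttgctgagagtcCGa

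In these windows OR51V1 and OR9G1 carried 1 CG each, OR2AG1 and OR5M9 carried 2 each, OR5P2 carried 4 and OR52N2 carried 14. Over the 135 members the number of CG per 300 bases had a median of 1 and a range of 0 to 14. The median was 1 in the 177 promoters of receptors on other chromosomes and 22 in the 15500 promoters of other protein-coding genes. OR52N2 was the single member with 10 or more CG (0.741% of 135), against 74.4% of other promoters. The G+C content had a median of 37% in members and 63% in other genes.

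**Figure D1:**
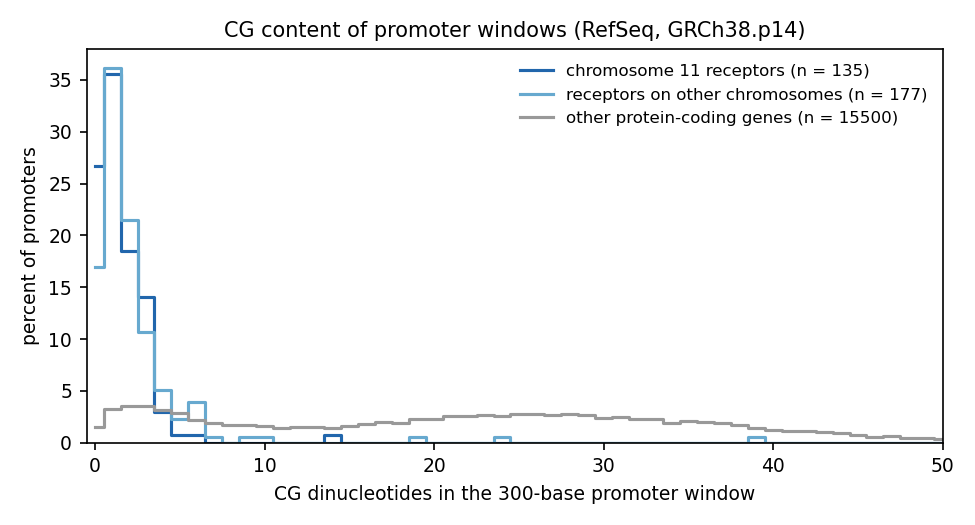
Share of promoters (vertical axis, percent) by number of CG dinucleotides in the 300-base promoter window (horizontal axis), for chromosome 11 receptors (n = 135), receptors on other chromosomes (n = 177) and other protein-coding genes (n = 15500). The axis ends at 50 CG, and other promoters reach 69. Members pile up at 0 to 3 CG, with OR52N2 alone at 14, while other genes spread widely around a median of 22.

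A pair of motifs tied to receptor promoters in the mouse olfactory epithelium, and the TATA box, were searched as letters on both strands, and matches of different motifs may overlap. TAATTA, a core that LIM homeodomain factors such as LHX2 bind, was in 33 of 135 member promoters (24.4%), against 2.95% of other promoters and 3.35% of all 15812 promoters. CCCNNGGG, a core bound by EBF factors, was in 8.15% of members, against 21.9% of other promoters and 21.7% of all. TATAAA, the TATA box, was in 35.6% of members, against 9.13% of other promoters and 9.64% of all. Receptors on other chromosomes gave 21.5%, 7.91% and 34.5% for TAATTA, CCCNNGGG and TATAAA. These are letter matches in sequence of differing base composition, beside annotated starts that for some members may be coding starts. No binding was measured for these factors.

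KDM2A peaks were found at the ends of most members in NC cells, and at few with a low false discovery rate (FDR). A gene end counted as bound when a deposited peak overlapped the 2 kb to either side of its annotated start or end. By that count 119 of 168 members had a peak (70.8%, interval 63.3% to 77.6%), against a background of 84.0% of all 19821 protein-coding genes. The count was 179 of 219 for receptors on other chromosomes and 950 of 1129 for other genes of chromosome 11. Short genes have less window. Among members of 2000 bp or less it was 66 of 92 (71.7%, 61.4% to 80.6%), against 774 of 1028 other genes of that length (75.3%). The windows of short genes overlap, so peaks per Mb of window were also counted. They were 179 per Mb for members (154 to 207), against 212 for receptors on other chromosomes, 232 for other genes of chromosome 11 and 235 for all genes. Of the members, 49 had no peak, 63 had 1, 38 had 2 and 18 had 3 or more.

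The deposited peak list runs up to an FDR of 0.869, and 3.13% of its 504724 peaks had an FDR under 0.05. With that limit, 4 of 168 members had a peak at an end (2.38%), against a background of 5.55%. They were OR52R1, OR52L1 and OR52A1 of class I and OR2AG1 of class II, all in the first cluster. OR52R1 had a peak at chr11:4801374-4801783 with a fold over local background of 4.18, 1650 bp from the gene. The peak of OR52L1 lay within its coding gene (chr11:5986018-5986251, fold 4.06, pileup of 13 reads), inside the long annotated span of OR56A3. OR52A1 had a fold of 3.89 within its span. OR2AG1, known to respond to the fruity ester amyl butyrate, had a peak with a fold of 3.37 that ended 133 bp before its start. It lay over part of the promoter window printed above. A further peak with a fold of 4.20 (chr11:6788678-6789003, FDR 0.00257) lay within the annotated body of OR2AG1, more than 2 kb from either end.

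The other members named here had an FDR above 0.05. OR51V1 and OR5M9 each had a fold of 3.47 with an FDR of 0.0644, in both cases with the peak inside the gene. OR5D14 followed with 3.30, OR5B3 with 3.27, OR4C15 with 3.19 and OR8U3 with 3.15, a value that OR4A16, OR4S2, OR5T2 and OR8B12 shared. The highest fold was 3.11 for OR4S1 and for OR4C12 in their own clusters, 2.68 for OR2AT4 and 3.15 for OR8B12 in the last cluster. Over all 119 members the highest fold at an end had a lowest value of 1.66, a median of 2.52 and a highest of 4.18, and the median over all genes with a peak was 2.59. A peak lay at an end of 41 of 55 class I members (74.5%) and 78 of 113 class II members (69.0%), with 179 peaks per Mb of window in both.

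**Figure D2:**
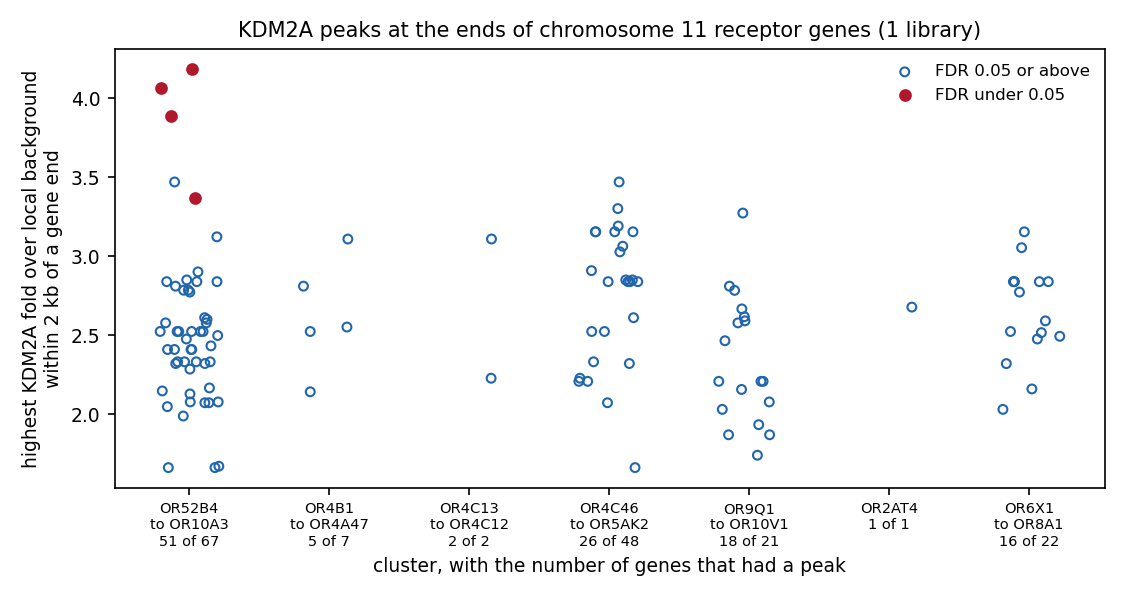
Highest KDM2A fold over local background (vertical axis) within 2 kb of a gene end, 1 point per member with a peak, by cluster (horizontal axis, with the number of members that had a peak), in 1 NC library. The 4 filled points are the members with an FDR under 0.05, at folds of 3.37 to 4.18, and all sit in the first cluster. Points are spread sideways for visibility only.

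Across whole clusters KDM2A peaks were about as dense as on the rest of chromosome 11. The clusters held 1559 peaks, or 177 per Mb, against 22137 peaks, or 175 per Mb, in the rest of the chromosome (ratio 1.01, 0.961 to 1.07). Peaks with an FDR under 0.05 numbered 35 in the clusters (3.98 per Mb) and 686 in the rest (5.43 per Mb), a ratio of 0.733 (0.506 to 1.03). By cluster, in chromosome order, the density was 185, 216, 365, 153, 201, 132 and 149 peaks per Mb. It was below the rest of chromosome 11 in OR4C46 to OR5AK2 (ratio 0.870, 0.782 to 0.965). It was above in OR9Q1 to OR10V1 (1.15, 1.03 to 1.28) and in the pair OR4C13 and OR4C12 (2.08, 1.04 to 3.73), where 11 peaks fell in 30 kb. The strongest peak in any cluster (chr11:59568688-59568914, fold 6.96, FDR 4.06e-12, pileup 26) lay 47985 bp from the nearest member, OR4D9. Of the 35 peaks with an FDR under 0.05, 7 overlapped a member and 9 lay within 2 kb of one.

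A peak overlapped the body of 104 of 168 members (61.9%), against a background of 90.1% of all genes. Among members of 2000 bp or less it was 48 of 92 (52.2%), against 445 of 1028 other genes of that length (43.3%). Within clusters, KDM2A peaks gathered over the receptor genes themselves rather than before their annotated starts, which for some members may be coding starts. In the 500 bp after the start the 135 members had 37 peak midpoints, 3.65 times (2.53 to 5.14) the density found 2 to 10 kb away on both sides. In the 500 bp before the start they had 10, or 0.988 times that density (0.469 to 1.84). Receptors on other chromosomes gave 1.75 (1.18 to 2.51) after the start and 0.508 (0.231 to 0.971) before it. Other protein-coding genes had more peaks than their surroundings on both sides, at 2.14 after and 1.61 before the start.

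**Figure D3:**
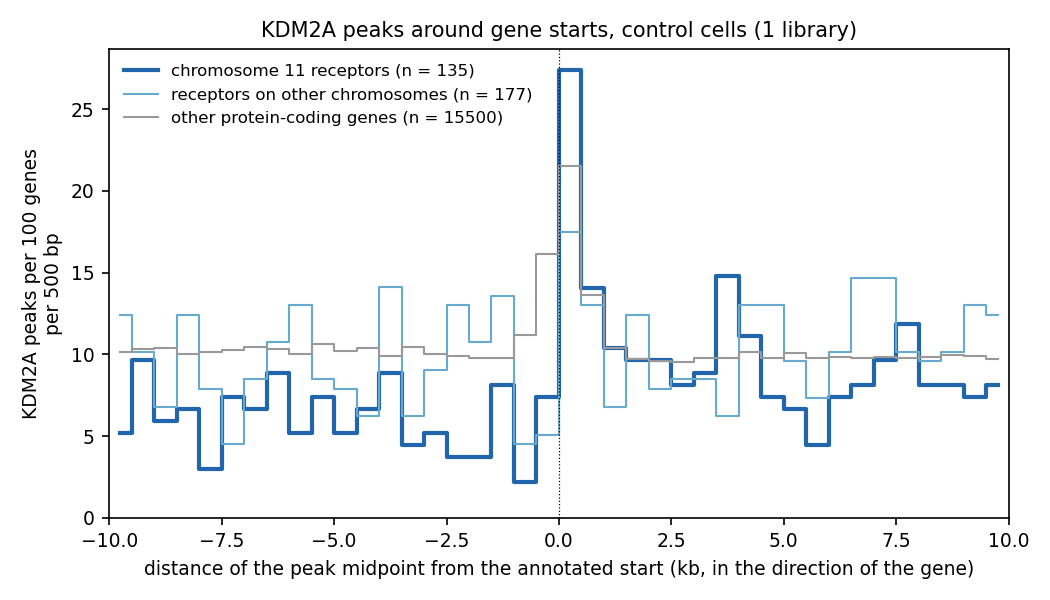
KDM2A peak midpoints per 100 genes in 500-bp steps (vertical axis) by distance from the annotated start in the direction of the gene (horizontal axis, kb, positive downstream), in 1 NC library. Chromosome 11 receptors (n = 135) reach 27.4 per 100 genes in the first 500 bp after the start and 7.41 in the 500 bp before it. Other protein-coding genes (n = 15500) are raised on both sides, at 21.5 and 16.1.

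The same was seen over whole short genes, a count added after the profile around starts had been seen. The 92 members of 2000 bp or less held 51 peak midpoints in their bodies, 563 per Mb, against 152 per Mb in the other sequence within 10 kb (ratio 3.69, 2.68 to 5.00). A midpoint fell in 47 of the 92 genes. The ratio was 4.44 (2.59 to 7.28) for class I and 3.34 (2.20 to 4.90) for class II, and these intervals overlap. It was 2.63 (1.90 to 3.57) for short receptors on other chromosomes and 1.80 (1.63 to 1.98) for 1028 other short genes. The interval of members overlapped that of short receptors on other chromosomes and did not reach that of other short genes. Genes with a midpoint were found in each cluster that had short members. They numbered 18 of 33 in the first cluster, 3 of 7 in OR4B1 to OR4A47, 2 of 2 in OR4C13 to OR4C12, 12 of 30 in OR4C46 to OR5AK2, 7 of 9 in OR9Q1 to OR10V1 and 5 of 11 in OR6X1 to OR8A1.

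These body peaks were more frequent but not higher than those beside the genes. Their fold had a lowest value of 1.66, a median of 2.48 and a highest of 4.06, against a median of 2.42 beside the genes, and their pileup a median of 7, against 8. OR52L1 alone had an FDR under 0.05. After it came OR51V1 and OR5M9, then OR8B12 and OR8U3 at 3.15 and OR4C12 and OR4S1 at 3.11. Of the 39 body peaks in members with a known start, 24 lay in the first 50% of the gene, and the median position was 43.4% of its length. With 1 and 8 peaks under an FDR of 0.05 in and beside the bodies, the ratio was 2.40 (0.0541 to 17.9), which cannot tell a gain from a loss at this depth. Coding sequences of related receptors resemble each other. How reads that align to several of them were handled is not given in the sources used here, so counts over single genes are uncertain. No pair of member promoters reached 90% identity.

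Promoter windows themselves did not stand out. A KDM2A peak overlapped 22 of 135 member promoters (16.3%), against 21.5% of other promoters. Those 22 had a median of 1.5 CG (0 to 3) and the rest a median of 1, so OR52N2, with 14, was not among them. OR52N2 did have a peak inside the gene, just past its window, so the count depends on where the window ends.

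H3K36me2 regions lay over few members in the hairpin libraries and over none in the control library. A region overlapped the body of 8 of 168 members in sh1 (4.76%; background 16.2% of all protein-coding genes) and of 9 in sh4 (5.36%; background 15.4%). In NC cells it was 0 of 168, which allows a share of up to 1.79%, against a background of 20.0%. Shares of members were below this background, which holds genes of all lengths, in all 3 libraries. A hairpin library had a higher covered percent than NC in 8 members for sh1 (background 10.6%) and 9 for sh4 (background 10.7%), and no member had it in both, against 4.69% of all genes. NC covered 0% of every member, so these are the same 8 and 9 members as above and not a further result. In 151 members (89.9%) no library had a region, against a background of 70.6%. A region in 2 or more libraries was found at 0 members, which allows up to 1.79%, against a background of 14.8%. With no NC region over a member, this repeats the count of 0 for both hairpins. Shares among genes of like length are given below. Both hairpins were set against the same NC library, so a low NC count enters both comparisons.

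In sh1 the members with a region were all of class II. The region over OR10D3 (chr11:124187201-124191400) had the highest fold over input, 1.89, from a recovered count of 155 reads, against 81 input reads before scaling, and covered 29.1% of the gene. OR10A2 followed with a fold of 1.87 and 36.02% of the gene, then OR8D2 with 1.76 and OR5P2 with 1.75, both covered over 100% of their length. OR5A2 had a fold of 1.73 and 32.1%. OR5A1, a receptor for the violet odorant beta-ionone, was covered over 22.8%, and OR5AN1, a receptor for musk odorants, over 15.6%. OR2AG1 was covered over 32.6%, promoter included. OR5AN1, OR5A2 and OR5A1 are next to each other, each with a region of its own.

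In sh4 the 9 members shared 8 regions, and 5 were of class I. The region at chr11:6002601-6005000 had a fold of 2.10, from 102 reads, against 48 input reads before scaling, and lay over OR56A4 (32.0% of the gene) and the long span of OR56A3 (3.01%). OR5M9 had a fold of 1.91 over its full length, in a region of 6200 bp (chr11:56457801-56464000), which also held the KDM2A peak found inside that gene in NC cells. OR9G1 had a fold of 1.80 over 44.0% and OR51B5 one of 1.71 over 2.18% of its long span. The others were OR52H1 (26.1% of the gene), OR56B4 (89.8%), OR4D9 (48.7%) and OR6A2 (50.3%), a receptor for aldehydes such as those of coriander leaf. No class I member had a region in sh1, 0 of 55, which allows up to 5.45%. Within 2 kb of the gene, regions reached 8 members in sh1 (background 16.9%), 12 in sh4 (background 16.1%) and 0 in NC (background 21.3%). The 3 added in sh4 were OR52D1, OR5T1 and OR4D11.

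Length has to be read beside these counts, since a long gene has more room for a region. Among the 92 members of 2000 bp or less, 2 had a region in sh1 (OR5P2 and OR8D2), 2 in sh4 (OR56B4 and OR5M9) and 0 in NC. Among 1028 other genes of 2000 bp or less it was 9, 9 and 12 for sh1, sh4 and NC. The share of short members was thus 2.17% in each hairpin library (0.264% to 7.63%), above the 0.875% of other short genes. In NC it was 0% (0% to 3.93%), against 1.17%. These intervals include the shares of other short genes, so a difference either way was not detectable. For 76 longer members the counts were 6, 7 and 0, and other genes of like length were not counted. No library had a region at 95.7% of the 92 short members and at 97.3% of the 1028 other short genes. Regions in 2 or more libraries were found at 2 of those 1028 genes (0.195%) and at 0 of 219 receptors on other chromosomes. A higher covered percent than NC in both hairpins was found at 0 genes of either set. Of the summed length of member bodies, 1.86% was covered in sh1, 1.93% in sh4 and 0% in NC, against 3.12%, 3.55% and 3.60% of the bodies of all genes. Receptors on other chromosomes had a region at 1 of 219 in sh1, 8 in sh4 and 3 in NC. Other genes of chromosome 11 had one at 136 of 1129 in sh1, 142 in sh4 and 192 in NC.

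Counted over whole clusters, each region once, there were 17 H3K36me2 regions in sh1 and 26 in sh4, against 11 in NC. They covered 77.0 kb in sh1 and 117.6 kb in sh4, against 54.2 kb in NC, with mean widths of 4529, 4523 and 4927 bp. The mean folds over input were 1.64 in sh1, 1.72 in sh4 and 1.65 in NC. The ratio of region counts to NC was 1.55 for sh1 (0.683 to 3.65) and 2.36 for sh4 (1.13 to 5.30). On the rest of chromosome 11 there were 649 regions in sh1 and 718 in sh4, against 769 in NC, giving ratios of 0.844 and 0.934. The cluster ratio divided by that of the rest was 1.83 for sh1 (0.802 to 4.36) and 2.53 for sh4 (1.20 to 5.72). For sh1 the interval includes 1, so a difference was not detectable at this number of regions.

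The NC regions lay mostly far from receptors. Of the 11, 9 lay in the first cluster and 2 in OR9Q1 to OR10V1, and the nearest to a member was 2388 bp away, near OR52I1. In the first cluster 6 overlapped other protein-coding genes, namely TRIM68, DCHS1, NLRP14, SYT9 with 2, and PPFIBP2. The nearest-member distance had a median of 116026 bp in NC, against 2588 bp in sh1 and 18219 bp in sh4. Leaving out the first cluster raised the ratio of regions to 4.50 for sh1 (0.931 to 42.8) and 7.00 for sh4 (1.61 to 63.5), with 9 and 14 regions, against 2 in NC. Leaving out OR4C46 to OR5AK2 gave 1.91 for sh4 (0.880 to 4.38), so its interval then included 1. Without OR6X1 to OR8A1 it was 2.00 (0.930 to 4.57). With clusters split at gaps of 0.5 Mb the ratios were 3.0 for sh1 (0.909 to 12.8) and 4.25 for sh4 (1.39 to 17.4). With regions above the median fold of the NC list alone, there were 11 in sh1 and 18 in sh4, against 5 in NC, a ratio of 2.20 (0.705 to 8.08) and 3.60 (1.29 to 12.4).

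**Figure D4:**
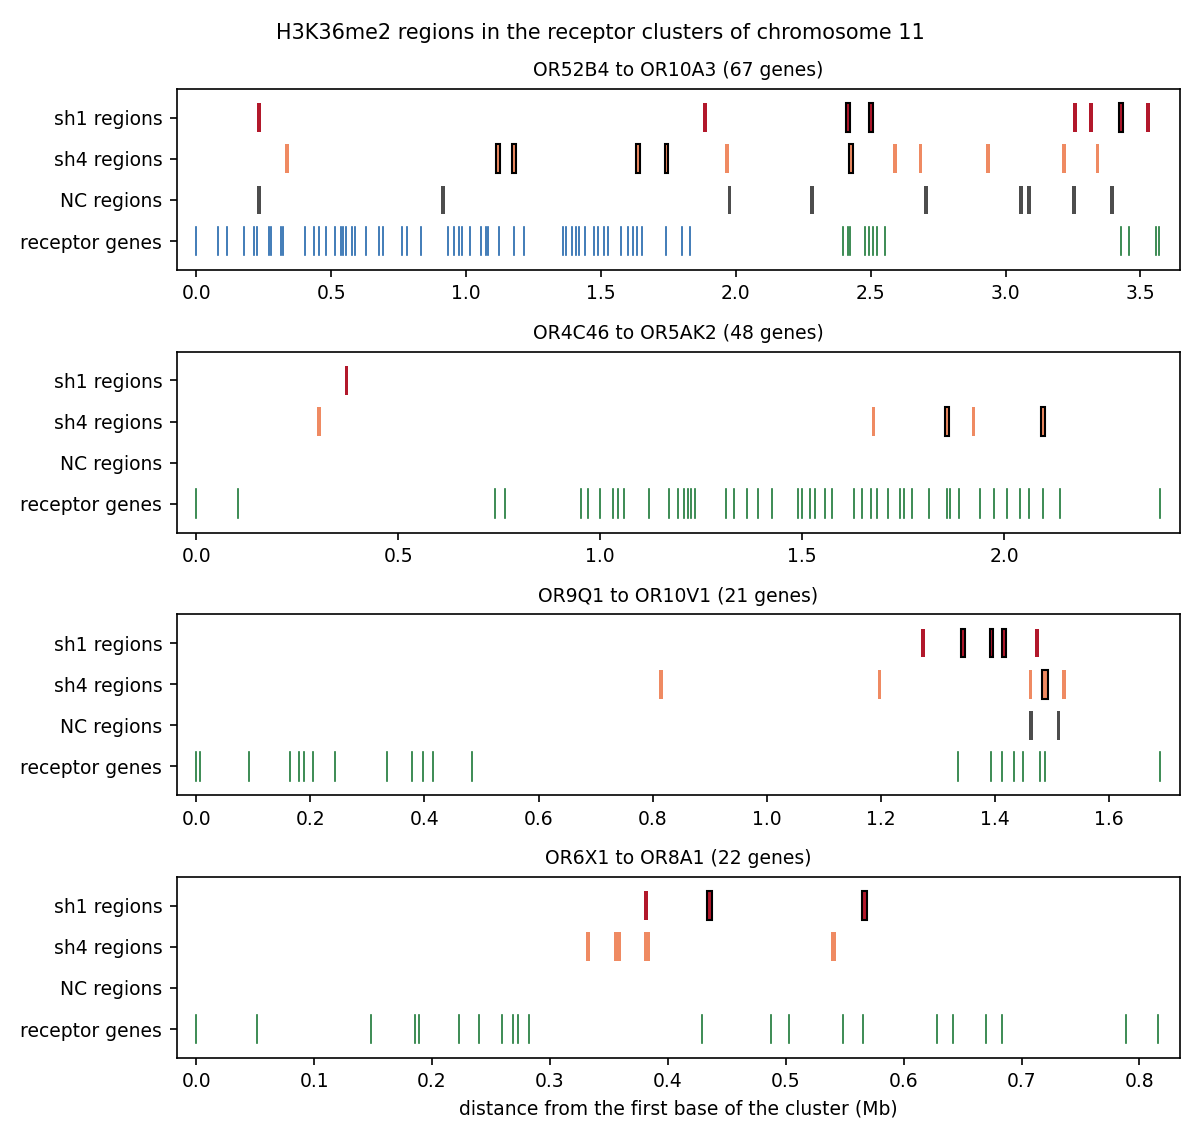
Positions of H3K36me2 regions and receptor genes in the 4 largest clusters (horizontal axis, Mb from the first base of each cluster), with rows for sh1, sh4 and NC, 1 library each. Blue lines are class I genes, green lines class II genes, black outlines mark regions over a receptor gene, and narrow regions are drawn with a minimum width. Outlined regions appear in sh1 (8) and sh4 (8) and not in NC, and the 3 smaller clusters, not drawn, had no region in any library.

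By cluster, OR52B4 to OR10A3 had 8 regions in sh1 and 12 in sh4, against 9 in NC. The stretch of class I genes within it had 1 in sh1 and 5 in sh4, against 2 in NC, and the stretch of class II genes 6 and 6, against 5. OR4C46 to OR5AK2 had 1 in sh1 and 5 in sh4, against 0 in NC. OR9Q1 to OR10V1 had 5 in sh1 and 5 in sh4, against 2 in NC. OR6X1 to OR8A1 had 3 in sh1 and 4 in sh4, against 0 in NC. No region fell in the 3 smaller clusters. These counts are too small for a ratio by cluster.

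The 2 hairpin libraries shared little in the clusters. A single pair of regions overlapped, 3.8 kb over VWA5A near OR10D3, which was 4.94% of the covered length in sh1 and 3.23% in sh4. Over the whole chromosome the shared length was 8.96% of that in sh1 and 8.14% of that in sh4. In the clusters sh1 shared 4.6 kb with NC, at TRIM68 and PPFIBP2, or 5.97% of its length and 8.49% of that in NC. sh4 shared 3.2 kb with NC near OR4D10, or 2.72% of its length and 5.90% of that in NC.

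In all 3 libraries regions were sparser in the clusters than on the rest of chromosome 11. The ratio of regions per Mb was 0.376 in sh1 (0.218 to 0.607), 0.520 in sh4 (0.338 to 0.769) and 0.206 in NC (0.102 to 0.370). The chromosome was also cut into windows of 1 Mb. The 10 windows with 5 or more members held 159 members among 244 genes and had 16 regions in sh1 and 26 in sh4, against 21 in NC, or 0.762 (0.372 to 1.53) and 1.24 (0.670 to 2.31) times NC. The 37 other windows with 10 or more genes had 86 and 76, against 150 in NC, or 0.573 (0.435 to 0.752) and 0.507 (0.379 to 0.672). The 89 windows with fewer genes had 564 and 642, against 609 in NC, or 0.926 and 1.05. Receptor windows averaged 24.4 genes, against 19.7 in the other gene-dense ones. Their interval overlapped that of both other kinds of window for sh1, and for sh4 it met that of the other gene-dense windows only at its edge. Whole receptor windows held 21 NC regions, against 11 within the clusters, so the ratios to NC were smaller than over the clusters.

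**Figure D5:**
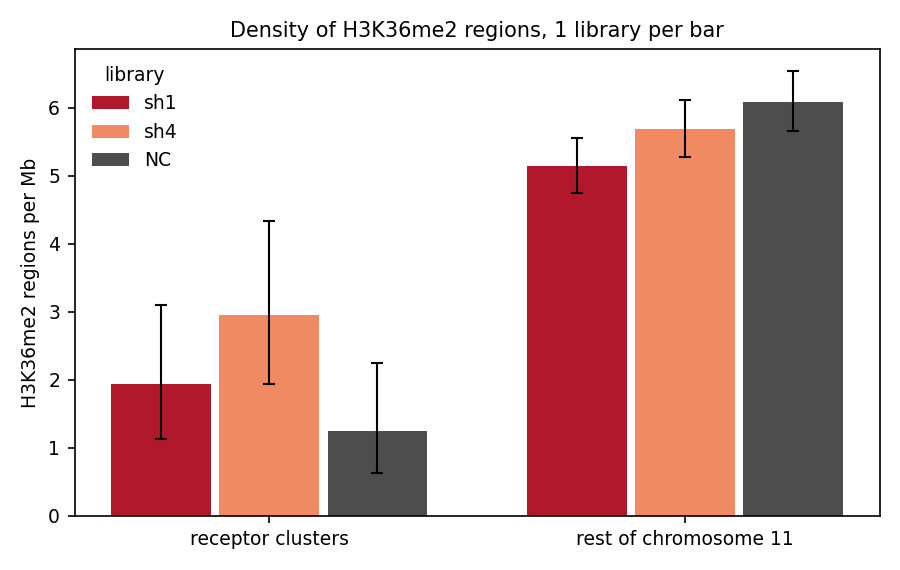
H3K36me2 regions per Mb (vertical axis) in the receptor clusters and on the rest of chromosome 11, for sh1, sh4 and NC, 1 library per bar with exact 95% Poisson intervals that cover counting error only. In the clusters the bars stand at 1.93, 2.96 and 1.25, and on the rest of the chromosome at 5.14, 5.69 and 6.09.

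Genes that work with the receptors were read from a list of 18 olfactory signalling genes. It holds the olfactory marker gene OMP, the G-protein, cyclase and channel genes GNAL, ADCY3, CNGA2, CNGA4, CNGB1 and ANO2, the receptor transport genes RTP1 and RTP2, and regulators such as LHX2, EBF1, LDB1 and KDM1A. A KDM2A peak lay at an end of 15 of the 18, near the background of 84.0%, and 0 had an FDR under 0.05, which allows up to 16.7% (background 5.55%). H3K36me2 lay over 5 in sh1, 2 in sh4 and 4 in NC, against backgrounds of 16.2%, 15.4% and 20.0% of all genes. The 5 in sh1 (ADCY3, ANO2, EBF1, GNAL and RIC8B) are long genes of 101069 to 403997 bp, with more room for a region. The 5 beta-globin genes, which lie among class I receptors, had no region in any library, and 3 had a KDM2A peak at an end, counts too few to set against those backgrounds. Of the 61 other genes in the clusters, 4 had a region in sh1, 8 in sh4 and 5 in NC, in each library a smaller share than the same backgrounds.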

How the data were processed

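Software listed in the submitters' processing notes, with no roles, is Bowtie 1.1.2, SICER and MACS2, and the build is hg38 or GRCh38; which reads were kept is not given in the sources used here. Of 8 libraries, 4 had peak lists, all used; the 4 inputs were not analysed on their own. In the deposited lists the fold is the authors' ratio of immunoprecipitated over background signal. Each deposited p-value and false discovery rate is the authors' own, below 1e-05 for every H3K36me2 region. The deposited H3K36me2 score and the deposited KDM2A pileup signal are likewise the authors'. H3K36me2 regions lie on a 200-bp grid. Median reads per region, recovered from fold and p-value under a Poisson model, were 151 in sh1, 156 in sh4 and 162 in NC (input 89, 92 and 99). Library totals are unknown.

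Starts and ends of H3K36me2 regions were taken as counted from 0 and moved to 1-based, and KDM2A coordinates were used as listed. Genes came from RefSeq (GRCh38.p14) by overlap; peaks were placed in clusters by midpoint, and a region counted once. Named members are the 10 with the highest KDM2A fold at an end, the highest in each cluster, and the 5 with the highest H3K36me2 fold in each library; the rest of the members with a region, and those near one, were added after their values were seen. Shares have exact Clopper-Pearson intervals, densities exact Poisson ones and ratios exact conditional binomial ones, at 95%. Limits for a count of 0, given as what it allows, use 3 counts and are tighter. The exact interval for 0 of 168 reaches 2.17%. Python 3.11.15, numpy 2.4.6, pandas 2.3.3 and scipy 1.17.1 were used, and the counting was tested on simulated data. Members and lists were chosen with earlier results of these data known.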

Additional observations from a re-analysis of the deposited data

How the results depend on the processing

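Of 62 recounts of 10 results, 48 stayed close to the value given above. Some of these could not move, so the 48 overstate how stable the results are. Leaving out a cluster without any region returns the same ratio, and a stricter setting cannot lower the NC count of 0 members. For a ratio, close meant within its counting interval (for covered length, that of the region ratio), and for a count of members within 1.5 times. The 119 members with a KDM2A peak at an end became 4 with an FDR under 0.05, 19 with the 10% of peaks of highest fold, and 78 at the start alone, where 135 members had one. The KDM2A density ratio of 1.01 was 0.733 with an FDR under 0.05 and 0.953 with clusters split at 0.5 Mb. The counting intervals of both ratios include 1, so a lower density in the clusters was not detectable under either setting. Leaving out the first cluster moved the ratio of regions to NC to 4.50 for sh1 and 7.00 for sh4, and that of covered length to 7.71 for sh1 and 12.4 for sh4. Splitting at 0.5 Mb moved covered length to 3.94 for sh1 and 6.11 for sh4, against 1.42 and 2.17. Regions above the median fold of the NC list gave 2.75 for sh1 and 4.82 for sh4. Members covered over 50% or more of their length were 2 in sh1 and 3 in sh4. For KDM2A over short members, chosen after seeing the data, the ratio of 3.69 was 2.40 with an FDR under 0.05. The cause was not tested beyond the fewer peaks and regions each recount holds.

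With 1 library per group, no value carries variation between cultures, and each cluster holds few regions. Peaks with an FDR of 0.05 or above make up most of the KDM2A list. No paired analysis was possible because each group was 1 library and no test between libraries was made.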
